A study of Mus musculus with 6 samples.

Results

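The interferon regulatory factors (IRFs) are transcription factors that share an amino-terminal DNA-binding domain with conserved tryptophans. 8 factors, Irf1 to Irf5 and Irf7 to Irf9, were taken by symbol from a table of 55298 gene identifiers. All 8 were among the 18161 genes tested, and no symbol was shared by several identifiers. The values came from RNA sequencing of brain cells that had been captured on magnetic beads with an antibody to O4, a sulfatide antigen of the oligodendrocyte lineage, and that were not cultured. The disease group held 3 pools of 2 mice each with experimental autoimmune encephalomyelitis (EAE), induced with the myelin oligodendrocyte glycoprotein peptide MOG 35-55. The other group had received ovalbumin (OVA) and held 3 samples, of which sample 2 was a pool of 2 mice and samples 1 and 3 were from 1 mouse each. All mice were of the strain written as c56Bl/6j in the labels, and tissue was taken at the disease maximum. Age and sex are not given in the sources used here.

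IRFs bind DNA elements built around the letters GAAA and link the sensing of nucleic acids, interferons and microbial products to gene expression. Irf3 and Irf7 are phosphorylated after nucleic acid sensing and switch on interferon genes. Irf9 is part of the complex ISGF3, which carries the type I interferon signal to the nucleus. Irf1 is induced by interferon gamma, and Irf2 can occupy the same elements and oppose it. Irf5 drives inflammatory cytokine genes below Toll-like receptors. Irf8 is needed for microglia and for several other myeloid cells, and Irf4 acts in lymphocytes, plasma cells, some dendritic cells and alternatively activated macrophages.

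Each value was an rlog value, a regularised logarithm of library-scaled read counts on the log2 scale, where 1 unit is a 2-fold step. The rlog pulls weakly expressed genes towards their own mean. The table held no counts, so sequencing depth was unknown and no counting interval could be given. The median of the tested genes lay between 8.88 and 8.96 in the 6 samples. Markers of oligodendrocytes, summed over 12 genes on the linear scale, reached a log2 level of 20.25 to 20.40 in EAE and 19.88 to 20.31 in OVA. Transcripts of other cells were present in every sample, among them the leukocyte antigen Ptprc at 11.66 to 11.88 in EAE and 11.11 to 11.76 in OVA. OVA sample 3 stood apart, with 8 neutrophil markers summing to 15.51 against 12.55 to 13.09 in EAE and 12.67 and 12.95 in the other OVA samples. The groups also differed in sex-linked transcripts, with Xist at 13.50, 13.55 and 14.16 in EAE against 7.39, 7.63 and 7.62 in OVA, and the Y-linked Ddx3y at 10.18, 10.17 and 9.44 in EAE against 11.46, 11.38 and 11.29 in OVA. The sex make-up that these values reflect cannot be told apart from the treatment.

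The start-site regions of 3 members hold the letters of known interferon-responsive elements. Stretches of these 3 are shown here because they hold such matches, not because of how the genes respond. RefSeq windows of GRCm38.p6, from 250 bases before to 50 bases after an annotated start, were given for all 8 members, 11 windows in total. They were searched on both strands for the interferon gamma element GAS (TTCNNNGAA), the ISRE core bound by IRFs (GAAA, any 2 bases and GAAA again), the composite ETS and IRF element EICE (GGAA, any 2 bases and GAAA) and the NF-kappaB consensus. The stretch of Irf1 lies at chr11:53769914-53770013 on the plus strand and ends 1 base before the start site, with a GAS and an NF-kappaB match in capitals. That of Irf8 lies at chr8:120736168-120736227 on the plus strand with 2 GAS matches in capitals. That of Irf2 lies at chr8:46739495-46739544 on the plus strand, and its capitals mark an EICE match that overlaps an ISRE match, followed by a GAS match.
Irf1: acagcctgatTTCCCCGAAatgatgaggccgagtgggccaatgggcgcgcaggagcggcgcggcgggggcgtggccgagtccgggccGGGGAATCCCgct
Irf8: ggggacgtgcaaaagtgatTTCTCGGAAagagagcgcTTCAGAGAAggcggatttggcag
Irf2: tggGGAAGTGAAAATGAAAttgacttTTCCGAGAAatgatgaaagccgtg

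GAS letters were present in 3 of the 11 windows, 1 each of Irf1, Irf2 and Irf8, and in 8.3% of all 32851 windows. ISRE and EICE letters were found in 1 of the 11 windows, that of Irf2, against 3.44% and 2.72% of all windows. The NF-kappaB consensus was present in 2 of the 11 windows, 1 each of Irf1 and Irf2, against 4.51% of all windows. A match is a description of letters and not of a bound site. The windows of Irf3, Irf4, Irf5, Irf7 and Irf9 held none of the 4 sets of letters, which says nothing of factors that bind elsewhere.

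Setting EAE against OVA asks which of these factors differ in abundance in O4-captured cells at the height of disease. Irf1, Irf5 and Irf8 rose in the EAE pools by limma, 2.46-fold, 1.49-fold and 1.91-fold, and no member fell. Irf7 had the largest difference of the family, 2.86-fold, but its limma adjusted p of 0.0534 missed the threshold of 0.05. Irf9 and Irf2 lay higher in every EAE pool than in any OVA sample without passing the test, and the samples of Irf3 and Irf4 overlapped. Thus 3 of 8 members rose, where 1.72% of all tested genes were called higher, and 0 of 8 fell, where 0.666% were called lower. At an unadjusted p under 0.05, 6 members were higher, against 9.17% of all genes, and 0 were lower, against 7.15%. The share of all genes called in either direction was 2.38%. A difference of at least 1 on the log2 scale was reached by 2 members, Irf1 and Irf7, and by 1.12% of all genes. The difference lay above 0 for 6 members and for 49.3% of all genes. The median difference over the 8 members was 0.53 on the log2 scale, and over all tested genes it was -0.0024. In 6 of 8 members every EAE value exceeded every OVA value, where 12.1% of all tested genes did so. In bulk RNA, more cells of a type and more RNA per cell cannot be told apart.

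**Figure D1:**
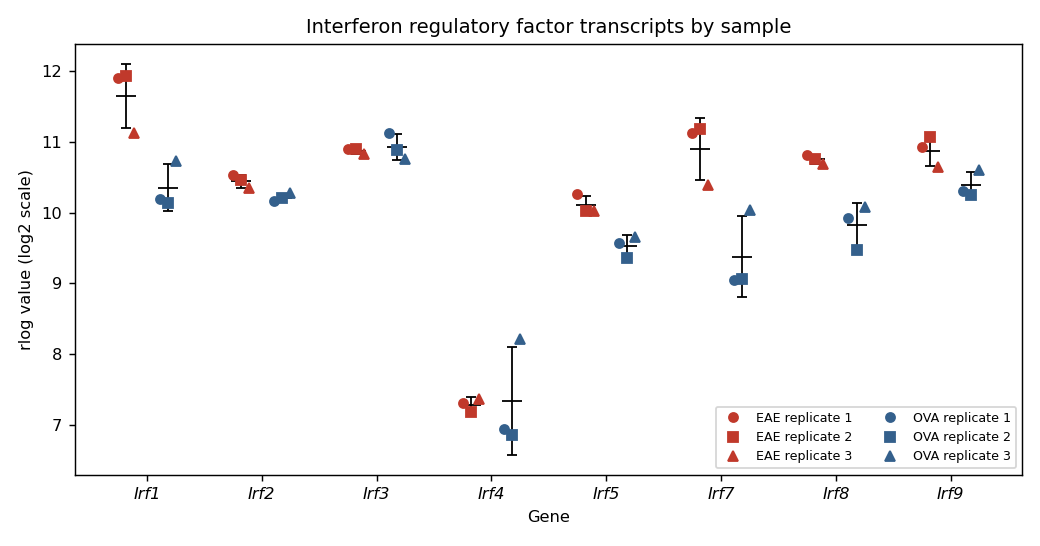
The rlog value (log2 scale) of each of the 8 interferon regulatory factors in 3 EAE samples (red, left) and 3 OVA samples (blue, right); symbols mark replicates, and black marks show the mean and SD. The groups do not overlap for Irf1, Irf2, Irf5, Irf7, Irf8 and Irf9, and OVA sample 3 has the highest OVA value of every member other than Irf3.

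Irf1 (ENSMUSG00000018899.16, GRCm38 chromosome 11, 53770014 to 53778374, plus strand) had rlog values of 11.90, 11.93 and 11.13 in the EAE pools, against 10.19, 10.14 and 10.73 in the OVA samples. The groups did not overlap, and the lowest EAE pool, pool 3, lay 0.40 above the highest OVA sample, sample 3. The mean was 11.65 ± 0.45 in EAE and 10.35 ± 0.33 in OVA (SD, n = 3 each). The difference was 1.30 ± 0.24 (SE, 95% interval 0.73 to 1.86; limma adjusted p = 0.0407). The adjusted p was 0.160, 0.157, 0.115 and 0.158 without EAE pool 1, EAE pool 2, OVA sample 1 and OVA sample 2, and it ranged from 0.0119 to 0.160 over the 6 fits that each left out 1 sample. The predicted gene Gm17334 lies on the opposite strand within Irf1, averaged 2.89 in EAE and 2.85 in OVA, and was below the level tested.

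Irf2 (ENSMUSG00000031627.9, chromosome 8, 46739732 to 46847458, plus strand), the factor that can oppose Irf1 at shared elements, varied little. Its values were 10.53, 10.45 and 10.35 in EAE against 10.16, 10.20 and 10.27 in OVA. All EAE pools lay above all OVA samples, by 0.07 at the nearest pair. The difference was 0.23 ± 0.08 (SE, 95% interval 0.05 to 0.41; limma adjusted p = 0.191) and did not pass the test. Pairs of members were compared by rlog values without correction for exonic length, so only changes between the groups are read. Within each sample, Irf1 exceeded Irf2 by 1.37, 1.47 and 0.78 in EAE and by 0.03, -0.07 and 0.45 in OVA. This within-sample distance was 1.07 larger in EAE (exact two-sided permutation p = 0.1, the smallest that 3 against 3 samples allow; 0.133 when adjusted over the 4 pairs of members compared).

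Irf7 (ENSMUSG00000025498.15, chromosome 7, 141262706 to 141266481, minus strand), which is itself interferon inducible and amplifies the type I response, had values of 11.13, 11.18 and 10.39 in EAE, against 9.05, 9.06 and 10.03 in OVA. EAE pools 1 and 2 lay about 2 units above OVA samples 1 and 2, while the samples numbered 3 of both groups stood 0.35 apart. The difference was 1.52 ± 0.31 (SE, 95% interval 0.80 to 2.24; limma adjusted p = 0.0534). The adjusted p fell under the threshold without EAE pool 3 (0.0448) and without OVA sample 3 (0.00553) and was at most 0.198 without another sample. It also passed after median centring (0.0376), quantile normalisation (0.0453) and weighting by mice per sample (0.0268), and over the 7 alternative settings with all samples it ranged from 0.000339 to 0.0645. The 3′ end of Irf7 meets Phrf1 on the opposite strand, which differed by 0.05 (limma adjusted p = 0.813).

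Irf3 (ENSMUSG00000003184.15, chromosome 7, 44997648 to 45002848, plus strand), the constitutively made partner of Irf7 in antiviral signalling, had values of 10.90, 10.90 and 10.83 in EAE and 11.13, 10.88 and 10.76 in OVA. The groups overlapped, and the difference was -0.05 ± 0.10 (SE, 95% interval -0.28 to 0.19; limma adjusted p = 0.855). Irf7 stood at 0.23 and 0.27 above Irf3 and at -0.44 from it in EAE pools 1 to 3, against -2.08, -1.82 and -0.73 in OVA. Irf7 minus Irf3 averaged 0.02 in EAE and -1.54 in OVA. This signed difference was therefore 1.57 higher in EAE (exact permutation p = 0.1, two-sided, adjusted 0.133). Irf3 overlaps Bcl2l12, a gene on the opposite strand, which differed by -0.13 ± 0.10 (SE; limma adjusted p = 0.568).

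Irf9 (ENSMUSG00000002325.15, chromosome 14, 55603571 to 55610030, plus strand), the DNA-binding subunit of ISGF3, had values of 10.92, 11.07 and 10.64 in EAE against 10.31, 10.25 and 10.61 in OVA. The groups were separated by 0.03 between the samples numbered 3. The difference was 0.49 ± 0.14 (SE, 95% interval 0.17 to 0.80; limma adjusted p = 0.127). Without OVA sample 3 the difference was 0.60 and the adjusted p 0.0304, and over the 6 fits with 1 sample left out the adjusted p ranged up to 0.392. Irf9 minus Irf3 was 0.03, 0.16 and -0.19 in EAE and -0.82, -0.63 and -0.16 in OVA, which overlapped (exact permutation p = 0.2, two-sided, adjusted 0.2). Irf9 shares a short same-strand overlap with Rnf31, which differed by 0.20 ± 0.10 (SE; limma adjusted p = 0.356).

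Irf5 (ENSMUSG00000029771.12, chromosome 6, 29526625 to 29541871, plus strand) had values of 10.26, 10.03 and 10.03 in EAE, against 9.57, 9.36 and 9.65 in OVA. The groups did not overlap, and here the samples numbered 3 were 0.38 apart. The mean was 10.11 ± 0.14 in EAE and 9.53 ± 0.15 in OVA (SD, n = 3 each), a difference of 0.58 ± 0.11 (SE, 95% interval 0.33 to 0.83; limma adjusted p = 0.0397). The adjusted p was 0.158, 0.133, 0.0830, 0.0927 and 0.129 without EAE pools 1 to 3, OVA sample 1 and OVA sample 2, and 0.0166 without OVA sample 3. Without the filter on low values it was 0.0551. Tnpo3, a nuclear import receptor gene that overlaps Irf5 on the opposite strand, differed by -0.01 ± 0.07 (SE; limma adjusted p = 0.968).

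Irf8 (ENSMUSG00000041515.10, chromosome 8, 120736358 to 120756694, plus strand) had values of 10.81, 10.76 and 10.68 in EAE, against 9.92, 9.47 and 10.08 in OVA. It was the member with the smallest limma p, and EAE pool 3 lay 0.61 above OVA sample 3. The mean was 10.75 ± 0.07 in EAE and 9.82 ± 0.32 in OVA (SD, n = 3 each). The difference was 0.93 ± 0.15 (SE, 95% interval 0.58 to 1.28; limma adjusted p = 0.0252), and it passed the threshold in all 7 alternative settings with all samples. With 1 sample left out the adjusted p was 0.112, 0.115, 0.0582, 0.0703 and 0.0538 without EAE pools 1 to 3, OVA sample 1 and OVA sample 2, and 0.00615 without OVA sample 3. Irf8 lies inside the long predicted gene Gm20388, which was listed at 0 in all samples.

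Irf4 (ENSMUSG00000021356.10, chromosome 13, 30749226 to 30766976, plus strand), the closest relative of Irf8 in the family, was the weakest of the 8 transcripts. Its values were 7.31, 7.18 and 7.37 in EAE against 6.94, 6.85 and 8.22 in OVA. OVA sample 3 was the highest of all samples, and the other OVA samples were the lowest. The difference was -0.05 ± 0.34 (SE, 95% interval -0.83 to 0.73; limma adjusted p = 0.962). Without OVA sample 3 it was 0.39, with an adjusted p of 0.0783 and a range of 0.0783 to 0.998 over the fits with 1 sample left out. Of 8 B and plasma cell markers, 7 had their highest value of all samples in OVA sample 3, and their summed log2 level was 10.74 there, against 9.27 to 9.49 in EAE and 9.37 in both other OVA samples. OVA sample 3 also held the highest value for 7 of 7 endothelial, 6 of 6 pericyte and smooth muscle and 6 of 8 neutrophil markers. It did so for 0 of 12 oligodendrocyte, 0 of 10 microglia, 0 of 6 neuron and 0 of 4 NK cell markers. Between these lay dendritic cells (4 of 8), monocytes and macrophages (3 of 13) and T cells (1 of 16). Astrocytes (1 of 9), plasmacytoid dendritic cells (1 of 7) and oligodendrocyte precursors (1 of 5) did as well. The share of all tested genes that were highest of all samples there was not determined. The part of any of these cells in the Irf4 value was not tested. Irf8 exceeded Irf4 by 3.50, 3.58 and 3.31 in EAE and by 2.98, 2.61 and 1.86 in OVA, a distance 0.98 larger in EAE (exact permutation p = 0.1, two-sided, adjusted 0.133).

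**Figure D2:**
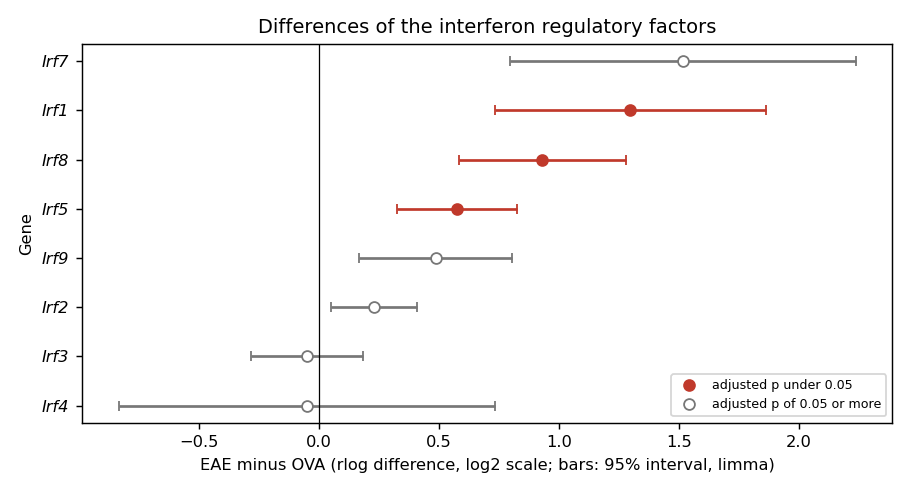
The difference EAE minus OVA of each factor in rlog units (log2 scale) with its 95% interval from limma; filled red points have an adjusted p under 0.05. Irf1, Irf5 and Irf8 are filled, Irf7 at 1.52 is the farthest from 0, and the intervals of Irf3 and Irf4 include 0.

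Members differed in how far single samples stood from the rest of their group. OVA sample 3 had the highest OVA value for 7 of the 8 members, as it did for 40.2% of all tested genes. Its distance from the mean of OVA samples 1 and 2 was 0.98 for Irf7, 0.56 for Irf1, 0.38 for Irf8, 0.33 for Irf9, 0.18 for Irf5, 0.09 for Irf2, 1.32 for Irf4 and -0.24 for Irf3. EAE pool 3 had the lowest EAE value for 6 of 8 members, against 34.2% of all tested genes, and lay -0.79 from the mean of the other EAE pools for Irf1 and -0.76 for Irf7, but -0.12 for Irf5 and -0.10 for Irf8. Monocyte and macrophage markers, 13 genes, summed to 16.31, 16.01 and 15.74 in EAE and 14.84, 15.01 and 15.75 in OVA on the log2 scale. None of these markers was at 0. In EAE 3 were called higher, against 1.72% of all tested genes, and 0 lower, against 0.666%. Of the 13, 12 lay above 0 and 1 below, with a median of 0.73, where 49.3% of all tested genes lay above 0. The sums of EAE pool 3 and OVA sample 3 lay close together, but single markers did not, as 5 were higher and 8 lower in EAE pool 3, with differences between -1.93 and 3.60. The part of these cells in the differences of Irf1, Irf5, Irf7 and Irf8 was not tested. Markers of resident microglia, 10 genes, had 2 called lower, 0 called higher and summed levels of 15.10 to 15.43 in EAE and 15.34 to 15.66 in OVA. T cell markers summed to 9.75 to 9.88 in EAE and 9.14 to 9.37 in OVA, with 8 of 16 called higher and none at 0. Among the remaining marker lists, called genes were found for astrocytes (1 higher and 5 lower of 9), dendritic cells (1 higher and 1 lower of 8), plasmacytoid dendritic cells (1 higher of 7) and oligodendrocyte precursors (1 lower of 5). There was no limma call for oligodendrocytes, neutrophils, B and plasma cells, NK cells, endothelial cells, pericytes or neurons, where at an unadjusted p under 0.05 the lists held 0 to 4 genes in either direction.

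Of the 3 members past the threshold, 0 passed in every fit that left out 1 sample. The count of members that rose was 0 without EAE pool 1, EAE pool 2, OVA sample 1 or OVA sample 2, 2 without EAE pool 3 and 5 without OVA sample 3. The share of all 18161 genes called higher was 0.463%, 0.132% and 1.57% without EAE pools 1 to 3, and 0.545%, 0.165% and 4.68% without OVA samples 1 to 3. The 6 members that lay above 0 did so in every one of these fits.

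**Figure D3:**
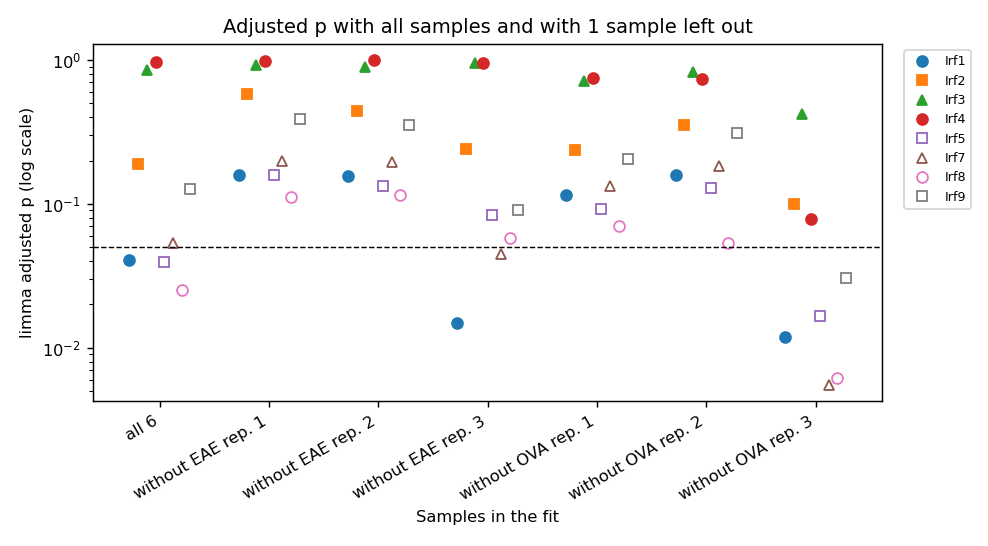
The limma adjusted p (log axis) of each factor with all 6 samples and with each sample left out in turn; the dashed line is the threshold of 0.05, and rep. stands for the number of the EAE pool or OVA sample. Below the line are Irf1, Irf5 and Irf8 with all samples, Irf1 and Irf7 without EAE pool 3, and Irf1, Irf5, Irf7, Irf8 and Irf9 without OVA sample 3.

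To compare levels between members, the log2 of the exonic length in kilobases was subtracted from the rlog value. On this scale Irf1 was the most abundant member in EAE, at 9.66 ± 0.45 (SD, n = 3), where it was second in OVA at 8.36 ± 0.33. Irf3 led in OVA, at 9.14 ± 0.19, and stood second in EAE at 9.09 ± 0.04. Irf7 followed in EAE at 8.98 ± 0.44 but took place 5 in OVA at 7.46 ± 0.57. Irf5 was at 8.57 ± 0.14 in EAE and 7.99 ± 0.15 in OVA, and Irf9 at 8.45 ± 0.22 in EAE and 7.96 ± 0.19 in OVA. Irf8 was at 7.93 ± 0.07 in EAE and 7.003 ± 0.32 in OVA, Irf2 at 7.56 ± 0.09 in EAE and 7.33 ± 0.06 in OVA, and Irf4 last at 4.99 ± 0.10 in EAE and 5.04 ± 0.77 in OVA (SD, n = 3 each). In EAE the samples of Irf3 and Irf7, of Irf7 and Irf5, and of Irf5 and Irf9 overlapped, so that these neighbours in the order were not apart. In OVA the same held for Irf5 and Irf9, Irf9 and Irf7, and Irf7 and Irf2. The places in the middle changed when the longest transcript gave the length, whereas Irf1, Irf3 and Irf4 kept theirs in both groups.

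**Figure D4:**
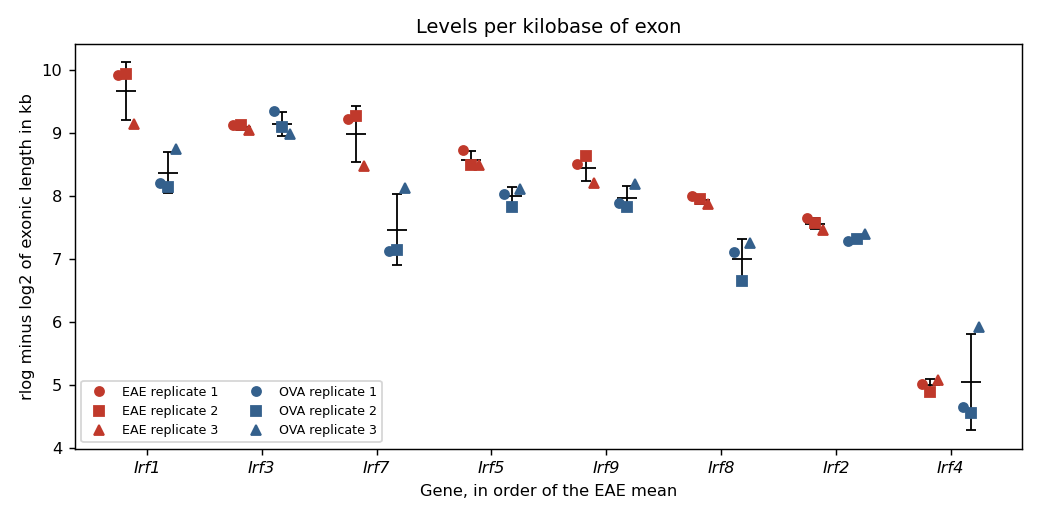
Levels per kilobase of exon (rlog minus log2 of exonic length in kilobases) in 3 EAE samples (red, left) and 3 OVA samples (blue, right), ordered by the EAE mean; black marks show the mean and SD. Irf1 at 9.66 is the highest in EAE, Irf3 at 9.14 is the highest in OVA, and Irf4 lies lowest in both groups.

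For each member, the genes with the most similar course over the 6 samples were found by the root mean square (RMS) difference of their mean-centred values, among 15107 other genes. The values were not scaled to a common spread, so genes that vary little can lie close together whatever their direction. Irf2 and Irf3, for example, lay at 0.20. Irf1 was nearest to Oasl2 (RMS difference 0.03), followed by Tgtp2 (0.08) and Gbp7 (0.09), which are all interferon-inducible genes. Oasl2 stood at 11.97, 12.08 and 11.19 in EAE and 10.32, 10.22 and 10.82 in OVA. Irf7 was nearest to Oas3 (0.07), Irgm2 (0.12) and Ifit3 (0.13), interferon-inducible genes as well. Irf8 was nearest to the plasminogen activator gene Plau (0.05), the medium-chain fatty acid receptor gene Gpr84 (0.09) and Plek (0.10), which encodes pleckstrin of platelets and leukocytes. Irf5 was nearest to the cation channel gene Trpm2 (0.04), Mir5107 (0.05) and Renbp (0.05), and Irf9 to Dnase1l3, Tgm1 and Osgin1 (0.07 each). Irf4 was nearest to Ikzf3 (0.05), a transcription factor gene of lymphocytes, Lrmp (0.06), a gene of lymphoid cells, and the mitotic kinase gene Aurkb (0.09). Ikzf3 had values of 6.87, 6.87 and 6.94 in EAE and 6.61, 6.45 and 7.82 in OVA, with OVA sample 3 again the highest. Irf2 was nearest to Crem, Aldh16a1 and Psmd8 (0.02 each), and Irf3 to Ikbkb, Taok2 and Acot8 (0.02 each). Within the family, the smallest RMS differences were those of Irf5 and Irf9 (0.16), Irf1 and Irf7 (0.18) and Irf2 and Irf9 (0.18), and the largest was that of Irf3 and Irf7 (0.92).

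Upstream of the factors, 20 of 21 interferon genes were too low to be tested, and 18 of them, 13 of which encode interferon alpha subtypes, were listed at 0 in all samples. Ifnb1, the interferon beta gene, had values of 0.48, 0.44 and 0.51 in EAE and 0.44 in each OVA sample. Ifng, the interferon gamma gene, was low but rose, with values of 4.32, 4.48 and 4.32 in EAE against 3.89, 4.00 and 3.90 in OVA, a difference of 0.44 ± 0.07 (SE; limma adjusted p = 0.0246). It missed the threshold in each fit with 1 sample left out, save that without OVA sample 3 (highest adjusted p 0.108). The rlog shrinks the spread of such low values.

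Among 24 genes that activate IRFs below nucleic acid and Toll-like receptors, 1 rose and 1 fell, and 21 lay above 0 with a median of 0.25. Of all tested genes, 1.72% were called higher and 0.666% lower, and 49.3% lay above 0. Ikbke, a kinase that phosphorylates Irf3 and Irf7, had values of 10.62, 10.30 and 9.96 in EAE against 9.03, 8.96 and 8.93 in OVA. It rose 2.50-fold (limma adjusted p = 0.0112), whereas its relative Tbk1 differed by 0.07 (0.749). Tlr3, the receptor for double-stranded RNA, fell by 0.52 ± 0.09 (SE) on the log2 scale, with values of 9.88, 9.95 and 9.87 in EAE against 10.44, 10.28 and 10.55 in OVA (limma adjusted p = 0.0286). Tlr3 passed when OVA sample 3 was left out and missed the threshold in the other 5 such fits (highest adjusted p 0.129). The count of genes that rose was 0 without EAE pool 2 or OVA sample 2 and 3 without OVA sample 3. It was 2 without the intensity trend or with weights by mice, settings that called 1.66% and 2.43% of all genes higher. With array quality weights it was 15, in a setting that called 15.7% of all genes higher and 12.3% lower.

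Of 18 genes of interferon receptor signalling, 2 rose, against 1.72% of all tested genes, 0 fell, against 0.666%, and the median was 0.20. They were the transcription factor genes Stat2, a subunit of ISGF3 beside Irf9, and Stat3, known for its part in interleukin signalling. Stat2 rose by 0.84 ± 0.15 (limma adjusted p = 0.0385) and Stat3 by 0.53 ± 0.10 (SE; 0.0381). The receptor subunit genes Ifnar1, Ifnar2 and Ifngr1 differed by -0.12, 0.01 and -0.13 on the log2 scale (adjusted p 0.729, 0.968 and 0.509 by limma). Ifngr2, the other subunit of the interferon gamma receptor, had values of 9.68, 9.65 and 9.64 in EAE against 9.21, 8.93 and 9.36 in OVA. Its groups did not overlap, but the difference of 0.49 ± 0.11 (SE) did not pass the test (limma adjusted p = 0.0795). Leaving out EAE pools 1 to 3 in turn left 0, 0 and 4 genes higher, and leaving out OVA samples 1 to 3 left 0, 0 and 6. The count was 1 with no filter on low values, 5 when samples were weighted by mice and 10 with array quality weights. These settings called 0.868%, 2.43% and 15.7% of all genes higher.

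Of 14 partners and regulators of IRF proteins, 1 rose, against 1.72% of all tested genes, and 0 fell, against 0.666%, with a median of 0.14. This was Batf2, a basic leucine zipper factor that acts with Irf1 in activated macrophages, with values of 7.45, 7.50 and 6.87 in EAE against 5.84, 6.07 and 6.19 in OVA (2.37-fold; limma adjusted p = 0.0215). The myeloid factor Spi1, which binds EICE elements together with Irf8 or Irf4, differed by 0.60 ± 0.15 (SE; limma adjusted p = 0.0984). The corepressor genes Irf2bp1, Irf2bp2 and Irf2bpl, whose proteins bind Irf2 or resemble those that do, differed by 0.10, 0.19 and 0.12 (limma adjusted p = 0.624, 0.460 and 0.494). The count of 1 was 0 without EAE pool 1, EAE pool 2, OVA sample 1 or OVA sample 2, and 3 without OVA sample 3. It was 3 with weights by mice and 6 with array quality weights, which called 2.43% and 15.7% of all genes higher.

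Downstream of the factors, textbook targets were counted by the factor that is known to drive them, with some genes in several lists. Of 16 targets of Irf1, 11 rose, against 1.72% of all tested genes, and 1, Tlr3, fell, against 0.666%, with a median of 1.38. The 4 with the largest differences were the chemokine gene Ccl5 (7.59-fold; limma adjusted p = 0.000113), the inducible nitric oxide synthase gene Nos2 (7.25-fold; 0.0394), the checkpoint ligand gene Cd274 (6.62-fold; 0.0115) and Nlrc5, the activator of MHC class I genes (4.09-fold; 0.0103). Nos2 spread widely, with values of 12.28, 11.13 and 9.97 in EAE and 7.78, 8.33 and 8.70 in OVA. Of 23 targets of ISGF3, 8 rose and 0 fell, and each of the 23 had a difference above 0 (median 1.01). The genes that rose included Ifit3 (3.31-fold; 0.0462), Oasl2 (2.45-fold; 0.0461), Ifit2 (2.42-fold; 0.0204) and Mx1 (2.27-fold; 0.0233). In OVA sample 3, all 16 Irf1 targets and 19 of the 23 ISGF3 targets exceeded both other OVA samples. Leaving out EAE pools 1 to 3 in turn left 3, 1 and 11 Irf1 targets higher, and leaving out OVA samples 1 to 3 left 2, 1 and 12. For ISGF3 targets the counts were 0, 0 and 10 for the EAE pools and 2, 0 and 19 for the OVA samples. The ISGF3 count was 5 with no filter or without the intensity trend, 13 when samples were weighted by mice and 23 with array quality weights. In that order, these settings called 0.868%, 1.66%, 2.43% and 15.7% of all genes higher.

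Of 8 targets of Irf5, 4 rose, against 1.72% of all tested genes, 0 fell, against 0.666%, and the median was 0.62. They were the cytokine genes Il1b (2.77-fold; limma adjusted p = 0.0439) and Tnf (2.68-fold; 0.0115) and the chemokine genes Ccl4 (1.66-fold; 0.0213) and Ccl3 (1.58-fold; 0.0317). Of 12 tested targets of Irf8, 4 rose and 1 fell, with 7 above and 5 below 0. The 4 were Nos2, Tlr2, a receptor for bacterial lipoproteins (2.83-fold; 0.00806), Il1b and the microglia and macrophage gene Aif1 (0.66 ± 0.08 on the log2 scale, SE; 0.0102). The gene that fell was P2ry12, the ADP receptor of resting microglia, at 9.94, 10.14 and 10.54 in EAE against 11.47, 10.94 and 11.26 in OVA (-1.02 ± 0.18, SE; 0.0344). Of 5 tested targets of Irf4, 2 rose and 0 fell. Arg1, arginase of alternatively activated macrophages, had values of 12.44, 10.92 and 10.004 in EAE against 6.14, 6.23 and 6.41 in OVA (4.86 ± 0.53, SE; limma adjusted p = 0.00850), while Irf4 itself differed by -0.05. Prdm1, the regulator of plasma cells and effector lymphocytes, rose 1.97-fold (0.0204). Without EAE pool 1, EAE pool 2 and OVA sample 2, the Irf5 targets that rose numbered 1, 0 and 0, the Irf8 targets 1, 0 and 0, and the Irf4 targets 1, 0 and 0, and without OVA sample 1 the Irf8 targets numbered 2. P2ry12 missed the threshold without EAE pool 1, EAE pool 2, OVA sample 1 or OVA sample 2 (highest adjusted p 0.143). With array quality weights, 8 Irf5 targets were higher, 7 Irf8 targets were higher and 5 lower, and 1 Irf4 target was lower. That setting called 15.7% of all genes higher and 12.3% lower.

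Over all 112 tested genes of these lists, each counted once, 31 rose and 2 fell, where 1.72% and 0.666% of all tested genes did. Of the 112, 94 lay above 0, against 49.3% of all tested genes, with a median of 0.41. In fits that dropped EAE pools 1 to 3 in turn, 7, 1 and 33 genes were higher, and dropping OVA samples 1 to 3 gave 12, 1 and 52. The genes that were lower numbered 0, 0 and 1 for the EAE pools and 0, 0 and 2 for the OVA samples. Of all tested genes, 0.463%, 0.132% and 1.57% were higher for the EAE pools and 0.545%, 0.165% and 4.68% for the OVA samples. The shares that were lower were 0.0991%, 0.00551% and 0.248% for the EAE pools and 0.182%, 0.0385% and 1.91% for the OVA samples. The counts of single lists with 1 sample left out stand beside these same shares. Of the 24 genes named by rule from these lists or as level checks that passed the threshold, 3 passed in every fit that left out 1 sample, namely Ccl5, Cd68 and Cd3e. The level checks Cd68 and Cd3e rose 2.30-fold and 1.79-fold (limma adjusted p = 0.00725 and 0.00446).

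**Figure D5:**
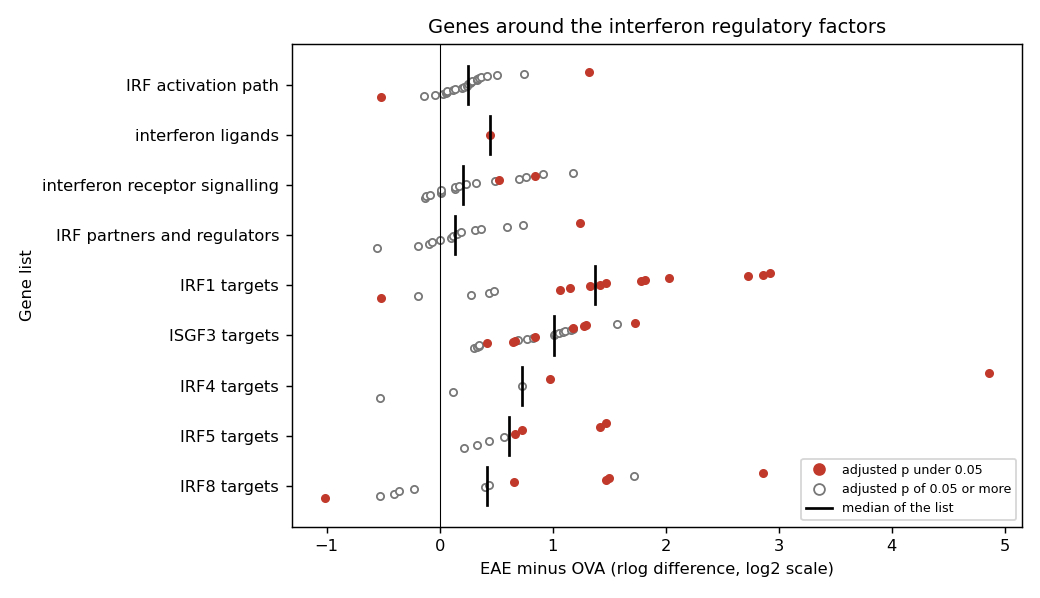
The difference EAE minus OVA (rlog units, log2 scale) of every tested gene in 9 lists around the interferon regulatory factors; filled red points have a limma adjusted p under 0.05, and black bars are the list medians. The medians run from 0.14 for partners and regulators to 1.38 for Irf1 targets, and Tlr3 and P2ry12 are the filled points below 0.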

How the data were processed

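The TruSeq Stranded mRNA kit was used, per the labels' protocols. GRCm38, DESeq2 1.24.0, Subread 1.6.1, STAR 2.6.1c, cutadapt 1.18 and bcl2fastq 2.17 are listed without roles, per the submitters' processing notes. The authors deposited 1 rlog value per gene and sample on the log2 scale. The gene annotation release, the strand setting of the counting and the rlog settings are not given in the sources used here. Reads of genes that overlap a member on the opposite strand may therefore not be separated.

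Identifiers were matched without version to GENCODE M21 (55117 of 55298, 99.7%), and positions are 1-based. Genes with a mean rlog under 3 were left out. EAE was compared with OVA with limma 3.58.1 in R 4.3.3 (empirical Bayes, intensity trend, two-sided, Benjamini-Hochberg over 18161 genes, threshold 0.05), and every adjusted p comes from that fit unless another is named. In simulated data of this comparison 32% of 50 genes shifted by 0.5 were recovered, 84% of those shifted by 1, 98% by 2 and 100% by 3, and among 18161 genes 16 calls were false. The simulated noise was independent, with the same spread in all 6 samples of a gene. In the data the median SD was 0.077 in EAE and 0.138 in OVA, so these figures may not hold for them. P-values measure the spread between these samples, of which 4 are pools.

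The named genes are the members, the largest changes past the threshold in each list (up to 4, and 1 in the opposite direction), the 3 genes most alike to each member without predicted gene models, genes overlapping a member, and fixed level checks. Tbk1, Spi1, Aif1, Ifnb1, Ifnar1, Ifnar2, Ifngr1, Ifngr2, the Irf2bp genes, Xist and Ddx3y were named after their values were seen. Members and lists were chosen with earlier results of these data known. A gene of the family and other items are not reported here. The lists cover IRF activation, ligands, receptor signalling, partners and targets, and markers of 14 cell types. Alternatives were the filter, the trend, scaling, weights, transcript length and leaving out each sample.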

Additional observations from a re-analysis of the deposited data

How the results depend on the processing

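Irf8 kept its direction and its call in all 7 settings that used the 6 samples. Without the intensity trend Irf1 missed the threshold (difference 1.30, adjusted p = 0.0512), as did Irf5 with no filter on low values (0.58, adjusted p = 0.0551). Irf7 passed after median centring (1.49), quantile normalisation (1.502), array quality weights (1.87) and weights by mice per sample (1.597). Array quality weights, whose estimation stopped before convergence and which gave OVA sample 2 a weight of 8.85 and OVA sample 3 one of 0.222, also moved Irf2 (0.25) and Irf9 (0.65) past the threshold, turned Irf4 to 0.38 and gave 6 members higher, 79 list genes higher and 7 list genes lower, where 15.7% of all tested genes were called higher and 12.3% lower. Weights by mice turned Irf4 to 0.071. When each sample was left out in turn, the group difference of Irf1 minus Irf2 ranged from 0.93 to 1.28. That of Irf7 minus Irf3 ranged from 1.30 to 1.97 and that of Irf9 minus Irf3 from 0.39 to 0.73. For Irf8 minus Irf4 it ranged from 0.67, without OVA sample 3, to 1.23, without OVA sample 1. With 1 sample left out, differences ranged from 1.16 to 1.56 for Irf1, 0.49 to 0.64 for Irf5, 1.35 to 1.84 for Irf7, 0.76 to 1.06 for Irf8, 0.39 to 0.61 for Irf9, -0.13 to 0.053 for Irf3 and -0.29 to 0.39 for Irf4, and counts from 0 to 5 members higher, 1 to 52 list genes higher and 0 to 2 lower. With the longest transcript as length, the places by level per kilobase became 5 for Irf5, 4 for Irf8 and 6 for Irf9 in EAE, and 5 for Irf2, 4 for Irf5, 7 for Irf7, 6 for Irf8 and 3 for Irf9 in OVA. Fits without a sample have fewer residual degrees of freedom; why the call of any 1 gene moved was not tested. No paired analysis was possible because the replicate numbers follow the order of the samples and pair nothing. Without counts, how far depth limits these values is unknown.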
